A study of Homo sapiens with 4 samples.

Results

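C/D box small nucleolar RNA (snoRNA) genes, whose symbols begin with SNORD, were examined in the neuroblastoma cell line SY5Y, of MYCN wild type genotype, after 12 h with SGSS05-NS, a covalent inhibitor of the histone and p53 methyltransferase SETD8, or with the vehicle DMSO. RNA-seq libraries were available for 2 replicates of each treatment, and the study describes the replicates as independent biological ones. The labels give a dose of 3 μM SGSS05-NS, while the methods of the study give a lower dose for this line, a figure legend the dose of the labels, and both name the compound SGSS05-NS3. The study also reports that the compound inhibits other methyltransferases at low micromolar concentrations. Which target a change follows was not tested here. Genes were chosen by their counts on the sense strand, which had to sum to at least 20 over the 4 libraries, and this left 65 of the 388 SNORD genes among 57820 gene rows. Of the other SNORD genes, 251 had no fragment in any library and 72 summed to between 1 and 19. The sum was the only measured value in the choice, and it stood just inside the limit for SNORD116-1 (24), SNORD19B (24) and SNORD116-26 (20) and just outside it for SNORD59A (19), SNORD116-23 (19) and SNORD116-17 (17).

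C/D box snoRNAs are short nuclear RNAs that carry a C box near the 5′ end and a D box near the 3′ end, bind the proteins fibrillarin, NOP56, NOP58 and SNU13, and pair with ribosomal or spliceosomal RNA to direct 2′-O-methylation. A few, among them U3 (the SNORD3 genes), SNORD118 and SNORD13, serve the cleavage or another modification of ribosomal RNA and are transcribed from promoters of their own. Most human C/D box snoRNAs are instead cut out of introns of host genes, often genes for ribosomal proteins or for long non-coding RNAs, so a snoRNA and the spliced exons of its host come from one transcript.

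The 65 genes fell into 3 classes by position. Of them, 37 lay in an intron of a host gene on the same strand, 22 overlapped an annotated exon of some transcript of a host, and 6 had no host (SNORD3A, SNORD3B-1, SNORD3B-2, SNORD3C, SNORD13 and SNORD88A). Hosts were sought among protein-coding and long non-coding RNA genes only, so a gene without a host here can lie within a gene of another type. The hosted genes belonged to 34 hosts. The genes had a median length of 89 bases, against 75 over all SNORD genes, and 8 were longer than 130 bases.

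The sequences of the most abundant gene and of genes past an adjusted p of 0.05 are shown so that their boxes can be read (GRCh37, read on the gene's own strand, capitals marking the first TGATGA, the common form of the C box, and the last CTGA, the D box). SNORD3A, SNORD3B-2, SNORD13 and SNORD15B passed as well and are named only. The first set holds genes with fewer fragments after SGSS05-NS, and SNORD17, the most abundant. SNORD3B-1 is shown for its first 216 bases (chr17:18965225-18965440, plus strand), SNORD17 lies at chr20:17943353-17943589 (minus strand), SNORD94 at chr2:86362993-86363129 (plus strand) and SNORD104 at chr17:62223443-62223512 (plus strand).
SNORD3B-1: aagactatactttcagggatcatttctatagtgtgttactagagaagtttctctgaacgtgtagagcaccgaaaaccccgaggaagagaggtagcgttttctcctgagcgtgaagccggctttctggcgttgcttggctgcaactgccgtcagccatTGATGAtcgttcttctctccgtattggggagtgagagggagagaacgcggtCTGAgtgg
SNORD17: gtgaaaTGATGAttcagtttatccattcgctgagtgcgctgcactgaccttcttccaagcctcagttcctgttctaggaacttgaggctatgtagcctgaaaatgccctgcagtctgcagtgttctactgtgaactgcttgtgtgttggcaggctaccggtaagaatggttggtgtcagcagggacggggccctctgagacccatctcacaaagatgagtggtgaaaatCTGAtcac
SNORD94: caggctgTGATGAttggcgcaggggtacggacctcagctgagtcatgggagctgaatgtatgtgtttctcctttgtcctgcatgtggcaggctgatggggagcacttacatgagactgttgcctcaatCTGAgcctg
SNORD104: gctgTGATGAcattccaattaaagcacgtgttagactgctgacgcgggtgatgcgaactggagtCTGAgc

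The second set holds the genes with more fragments after SGSS05-NS. SNORD53 lies at chr2:29149933-29150010 (plus strand) and SNORD53_SNORD92 at chr2:29150849-29150926 (plus strand), both in WDR43. SNORD63 lies at chr5:137894659-137894728 (minus strand) in HSPA9, SNORD70 at chr2:203141154-203141241 (plus strand) in NOP58 and SNORD71 at chr16:71792305-71792390 (minus strand) in AP1G1. The last 3 of these hold no TGATGA.
SNORD53: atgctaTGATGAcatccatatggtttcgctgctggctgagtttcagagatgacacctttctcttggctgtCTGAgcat
SNORD53_SNORD92: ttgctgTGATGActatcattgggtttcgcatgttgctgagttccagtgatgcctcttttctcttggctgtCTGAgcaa
SNORD63: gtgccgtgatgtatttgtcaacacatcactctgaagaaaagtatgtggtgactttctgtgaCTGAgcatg
SNORD70: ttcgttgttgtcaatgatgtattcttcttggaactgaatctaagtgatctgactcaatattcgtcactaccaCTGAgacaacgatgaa
SNORD71: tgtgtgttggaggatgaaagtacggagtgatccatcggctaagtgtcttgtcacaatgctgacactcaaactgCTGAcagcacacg

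Among the 65 genes, 47 held TGATGA within the first 20 bases and 59 held CTGA within the last 20 bases on their own strand, and 46 held both (70.8%). Over all 388 SNORD genes the share with both was 51.5%. Both motifs stood in 0.258% of the windows of the same length directly upstream of the SNORD genes and in none of the 398 H/ACA snoRNA genes (SNORA), the other large snoRNA class, of which 0.251% held the first motif and 8.79% the second. A match describes letters in a window and not a bound protein. Of the 45 hosted genes with a measured distance, the median distance from the 3′ end of the gene to the 3′ splice site of the intron was 307 bases, against 457 bases over the 225 SNORD genes with such a distance.

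The SNORD3 genes are near copies over the U3 RNA. The stretch printed for SNORD3B-1 was identical to that of SNORD3B-2 at all 216 bases, to that of SNORD3A at 215 (C78A) and to that of SNORD3C at 214 (C78A and G108A), with positions counted from 1 at the 5′ end of the printed stretch and the base of SNORD3B-1 first. The annotated SNORD3 genes reach beyond it, from 581 bases in SNORD3C to 791 bases in SNORD3B-2. Fragments mapping to several places were not counted on any gene, so the counts of single copies are uncertain and do not give the amount of U3 RNA. The pair SNORD53 and SNORD53_SNORD92 shared 81.3% of aligned bases, and SNORD116-18 and SNORD116-19 shared 98.9%.

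The libraries held 35094882 to 40502960 fragments, 21463105 to 25350204 of them on genes. The share outside annotated exons was higher after SGSS05-NS (16.1% and 15.3%) than in DMSO (12.4% and 12.3%), and its part in the results for genes inside introns was not tested. The neuroblastoma markers PHOX2A, HAND2, GATA3, ISL1 and DBH were abundant in every library (3202 to 5633 fragments for PHOX2A), and TH had at most 2 fragments. The 5 abundant ones were lower after SGSS05-NS at an adjusted p under 0.05. The 10 markers of fibroblasts, leukocytes and epithelium summed to 147 and 158 fragments with DMSO and to 141 and 189 with SGSS05-NS, with 1 higher, 1 lower and DCN, CD3E and KRT5 at 0. The part of these shifts in the results was not tested. In whole cultures, fewer cells of a type and less RNA per cell cannot be told apart.

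A few genes carried most of the signal. The 65 genes summed to 28206 fragments, of which SNORD17 held 60.1% and the 4 SNORD3 genes 20.4%. The 5 genes with the highest sums (SNORD17, SNORD3A, SNORD3B-1, SNORD3B-2 and SNORD15B) were all among the 8 that are longer than 130 bases. No gene of 110 bases or less summed to more than 380 fragments, the value of SNORD12B, and the median sum was 57. The labels name the TruSeq RNA Sample Prep kit, while the methods name a stranded kit with ribosomal RNA removal, so how the RNA was selected is not settled here, and neither kit is made for small RNA. A fragment of an unspliced host transcript that crosses a snoRNA is counted on the snoRNA gene, so mature snoRNA and host intron cannot be told apart in these counts.

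SGSS05-NS was compared with DMSO across 16468 genes with the quasi-likelihood test of edgeR, and p-values were adjusted over all of them by the Benjamini-Hochberg method. Of the 65 C/D box snoRNA genes, 44 had enough fragments to be tested. At an adjusted p under 0.001, 0 were higher and 0 were lower, while 14.5% of genes overall were called (6.37% higher and 8.14% lower). At an adjusted p under 0.05, 5 were higher and 7 were lower, together 12 of 44, where 46.3% of genes overall were called (22.6% higher and 23.7% lower). An unadjusted p under 0.05 was reached by 15 of the 44 genes and by 53.5% of all genes tested. At each of these limits the share of C/D box snoRNA genes was below that over all genes. Their depth was low, with a median sum of 57 fragments over the 65 genes. The share was not compared with that of genes of like depth.

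Counts at 0.001 differed somewhat between tests on the same 44 genes. The likelihood ratio test of edgeR gave 1 higher and 2 lower (12.3% and 13.8% of all genes), and DESeq2 gave 0 higher and 1 lower (6.84% and 9.57%). The median log2 fold change of the 44 genes was 0.07, against 0.01 over all genes tested, with a range from -1.02 to 1.70. It was positive for 23 and negative for 21. The 2 treated libraries lay above both DMSO libraries for 15 of the 44 genes (37.8% over all genes tested) and below both for 10 (36.9%).

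**Figure D1:**
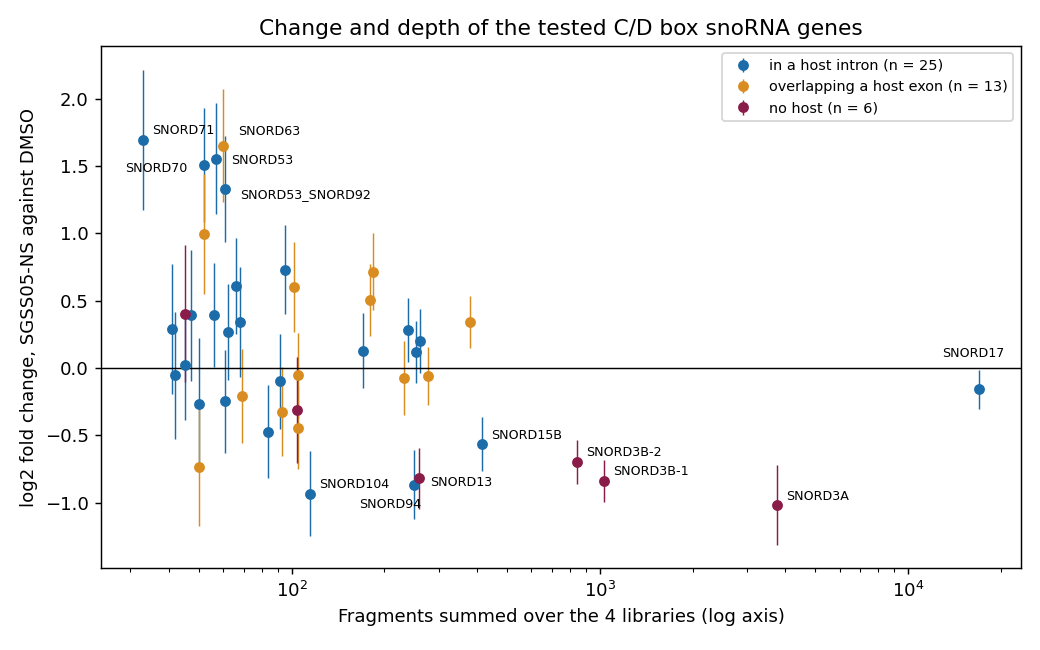
Log2 fold change of SGSS05-NS against DMSO (vertical axis, bars of 1 standard error) against the fragments summed over 4 libraries (horizontal log axis) for the 44 tested C/D box snoRNA genes, coloured by host class, with names for SNORD17 and for genes at an adjusted p under 0.05. The 5 named higher genes have sums of 33 to 61, while the 7 named lower genes have sums of 115 to 3763.

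The calls were also counted by class. Of the 6 genes without a host, 0 were higher and 4 lower at 0.05, with a median log2 fold change of -0.76, and 3 of these 4 are the near copies of U3. Of the 25 tested genes in introns, 4 were higher and 3 lower, with a median of 0.20, and of the 13 that overlap a host exon, 1 was higher and 0 lower, with a median of -0.05. Over all genes 22.6% were higher and 23.7% lower at this limit. The higher genes of both hosted classes were tested because of their SGSS05-NS libraries, as set out below. The counts and medians of these classes are therefore no support for a rise. No class was tested against another.

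The U3 genes were the most abundant of those without a host. U3 RNA takes part in the early cleavages that release the small subunit ribosomal RNA. SNORD3B-1 gave 360 and 317 fragments with DMSO and 196 and 160 with SGSS05-NS, and both treated libraries lay below both controls. Its level in TMM-normalized CPM (counts scaled to library size) was 14.3 and 13.6 with DMSO (SD 0.551, n = 2) and 8.83 and 6.80 with SGSS05-NS (SD 1.43, n = 2). The log2 fold change was -0.84 with a standard error of 0.16 and an adjusted p of 0.00115 in edgeR's quasi-likelihood test, just short of 0.001. It passed 0.001 in several other fits, among them DESeq2, with an adjusted p of 0.000385, and edgeR's likelihood ratio test, with an adjusted p of 3.53e-06.

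SNORD3B-2, the neighbour on the opposite strand, gave 297 and 238 fragments with DMSO and 163 and 147 with SGSS05-NS. Its treated libraries again lay below both controls, with a log2 fold change of -0.70, a standard error of 0.16 and an adjusted p of 0.00418 in edgeR's quasi-likelihood test. Both SNORD3B genes stayed below an adjusted p of 0.05 with any 1 library left out.

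SNORD3A gave 1849 and 725 fragments with DMSO and 467 and 722 with SGSS05-NS. DMSO replicate 1 stood far above the other 3 libraries, and DMSO replicate 2 nearly met SGSS05-NS replicate 2, at 31.0 and 30.7 CPM. The log2 fold change was -1.02 with a standard error of 0.29 and an adjusted p of 0.0143 in edgeR's quasi-likelihood test. Without DMSO replicate 1 it was -0.26 with an adjusted p of 0.256, without DMSO replicate 2 it was -1.51 with an adjusted p of 9.64e-09, and without SGSS05-NS replicate 1 it was -0.77 with an adjusted p of 0.0831.

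SNORD3C was much less abundant, with 30 and 29 fragments under DMSO and 12 and 33 under SGSS05-NS. Its groups overlapped, and the log2 fold change was -0.31 with an adjusted p of 0.542 in edgeR's quasi-likelihood test. Summed over the 4 SNORD3 genes, the level was 101 and 56.0 CPM with DMSO and 37.8 and 45.2 CPM with SGSS05-NS. The treated libraries lay below both controls, and the exact two-sided permutation test gave a p of 0.333, the smallest that 2 against 2 libraries can give.

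SNORD13, which guides the acetylation of small subunit ribosomal RNA, gave 92 and 77 fragments with DMSO and 46 and 44 with SGSS05-NS. Both treated libraries lay below both controls, at 1.97 ± 0.143 CPM against 3.48 ± 0.262 CPM (n = 2 each). The log2 fold change was -0.82 with a standard error of 0.23 and an adjusted p of 0.0110 in edgeR's quasi-likelihood test, and the adjusted p was at most 0.0644 with 1 library left out. SNORD118, the U8 RNA gene, which has a promoter of its own, had no fragment in any library, where 3 counts would have been 0.120 to 0.135 CPM. Fragments shared between genes or mapping to several places were not counted, so this does not show that U8 RNA was absent. SNORD88A, for which no host was found, overlapped between groups, with a log2 fold change of 0.40 and an adjusted p of 0.537 in the same test.

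**Figure D2:**
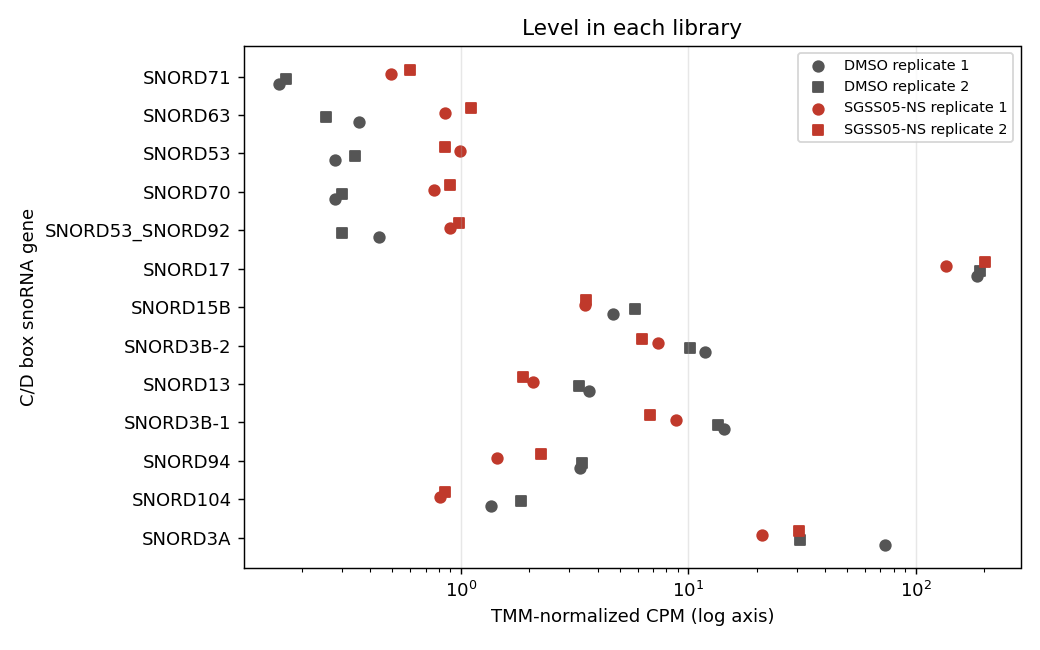
TMM-normalized CPM (horizontal log axis) of SNORD17 and of the 12 genes at an adjusted p under 0.05 in each of the 4 libraries, grey for DMSO and red for SGSS05-NS, circles for replicate 1 and squares for replicate 2. SNORD17 lies between 137 and 202 CPM with overlapping groups, and for the other genes both red points lie on one side of both grey points.

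SNORD17 was by far the most abundant intron-hosted gene. It guides methylation of the large subunit ribosomal RNA and lies in an intron of SNX5, which encodes a sorting nexin of the endosome. It gave 4672 and 4490 fragments with DMSO and 3034 and 4758 with SGSS05-NS, so that SGSS05-NS replicate 1 alone was low and the groups overlapped. The log2 fold change was -0.16 with a standard error of 0.15 and an adjusted p of 0.396 in edgeR's quasi-likelihood test. Without SGSS05-NS replicate 1 it was 0.10, and without SGSS05-NS replicate 2 it was -0.47 with an adjusted p of 0.00422.

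Another 3 intron-hosted genes were lower at 0.05. SNORD94, which guides methylation of the U6 spliceosomal RNA and lies in PTCD3, gave 84 and 80 fragments with DMSO and 32 and 53 with SGSS05-NS. Both treated libraries lay below both controls, with a log2 fold change of -0.87, a standard error of 0.26 and an adjusted p of 0.0151 in edgeR's quasi-likelihood test. Without SGSS05-NS replicate 1 the change was -0.59 with an adjusted p of 0.103.

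SNORD15B, in the ribosomal protein gene RPS3, gave 117 and 137 fragments with DMSO and 78 and 84 with SGSS05-NS. The groups did not overlap, and the log2 fold change was -0.57 with a standard error of 0.20 and an adjusted p of 0.0342 in edgeR's quasi-likelihood test. SNORD104, in the long non-coding RNA gene SNHG25, gave 34 and 43 fragments with DMSO and 18 and 20 with SGSS05-NS, again without overlap, with a log2 fold change of -0.93, a standard error of 0.32 and an adjusted p of 0.0276 in the same test. Without DMSO replicate 2 neither passed 0.05, with adjusted p-values of 0.253 for SNORD15B (log2 fold change -0.40) and 0.187 for SNORD104 (-0.70), and without either SGSS05-NS library both were also above 0.05.

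The genes higher at 0.05 were all of low depth. For these 5, both SGSS05-NS libraries and at most 1 DMSO library reached the minimum of the filter, so they were tested because of the group in which they are high, and their count is no support for a rise of the class. With at least 10 fragments required in every library none of them was tested, and of the 32 genes left 1 was higher and 7 lower at 0.05, with a median log2 fold change of -0.06. Under that filter 3218 of all 14630 genes tested were higher and 3378 lower at 0.05. SNORD63 (ENSG00000222937.1), in HSPA9, the gene of the mitochondrial HSP70, gave 9 and 6 fragments with DMSO and 19 and 26 with SGSS05-NS. Both treated libraries lay above both controls, with a log2 fold change of 1.65, a standard error of 0.42 and an adjusted p of 0.00511 in edgeR's quasi-likelihood test. A second gene of the same symbol in HSPA9 (ENSG00000206989.1) gave 9 and 2 fragments with DMSO and 6 and 13 with SGSS05-NS and had too few to be tested.

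SNORD53 and SNORD53_SNORD92 lie in neighbouring introns of WDR43, a gene for a ribosome biogenesis factor. SNORD53 gave 7 and 8 fragments with DMSO and 22 and 20 with SGSS05-NS, with a log2 fold change of 1.55, a standard error of 0.41 and an adjusted p of 0.00649 in edgeR's quasi-likelihood test. SNORD53_SNORD92 gave 11 and 7 with DMSO and 20 and 23 with SGSS05-NS, with a log2 fold change of 1.33, a standard error of 0.40 and an adjusted p of 0.0131 in the same test. Both treated libraries lay above both controls for each gene. The third C/D box snoRNA gene of this host, SNORD92, had 8 and 3 fragments with DMSO and 8 and 10 with SGSS05-NS and was not tested.

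SNORD70 lies in NOP58, which encodes a core protein of the C/D box snoRNP itself. It gave 7 and 7 fragments with DMSO and 17 and 21 with SGSS05-NS, with both treated libraries above the controls, a log2 fold change of 1.51, a standard error of 0.42 and an adjusted p of 0.00865 in edgeR's quasi-likelihood test. The other tested gene in NOP58, SNORD11, had a log2 fold change of 0.61 with an adjusted p of 0.173. SNORD71, in the clathrin adaptor gene AP1G1, gave 4 and 4 fragments with DMSO and 11 and 14 with SGSS05-NS, the lowest depth among the genes past 0.05. Its log2 fold change was 1.70 with a standard error of 0.52 and an adjusted p of 0.0123 in the same test, and its groups did not overlap.

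Of the 12 genes past 0.05, 4 (SNORD3B-1, SNORD3B-2, SNORD53 and SNORD63) stayed past it in every fit that left out 1 library. The other 8 missed it in at least 1 of the 4 fits. SNORD70 missed it only without SGSS05-NS replicate 2, with an adjusted p of 0.0501. SNORD71 missed it without DMSO replicate 1 (adjusted p of 0.0592) and without SGSS05-NS replicate 2 (0.0708), and SNORD53_SNORD92 without DMSO replicate 2 (0.0925) and without SGSS05-NS replicate 2 (0.0569). In each such fit 1 condition had a single library. In DESeq2, 2 of the 12 were under 0.05, SNORD3B-1 and SNORD3B-2 (adjusted p of 0.00652 for the latter), where 33.8% of all genes were. The adjusted p of the 5 higher genes lay between 0.0676 and 0.171 in that test.

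The 65 genes were also summed to a single value per library. Their summed level was 346 and 302 CPM with DMSO and 232 and 311 CPM with SGSS05-NS, a log2 ratio of means of -0.26, and the groups overlapped (exact two-sided permutation p of 0.667). The 6 genes without a host summed to 105 and 59.5 CPM with DMSO and 40.2 and 47.7 CPM with SGSS05-NS. The 22 genes that overlap a host exon summed to 22.5 and 18.7 CPM with DMSO and 24.0 and 25.2 CPM with SGSS05-NS. These groups did not overlap, downwards for the first and upwards for the second, and each reached only the smallest p the exact permutation test allows, 0.333. SNORD3A alone gave 73.7 and 31.0 CPM of the first sum with DMSO and 21.0 and 30.7 CPM with SGSS05-NS. The second sum includes the 13 genes of the SNHG14 region set out below, with means of 9.42 CPM with DMSO and 12.4 CPM with SGSS05-NS. The 37 intron-hosted genes overlapped, at 218 and 224 CPM against 168 and 238 CPM, which followed SNORD17.

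The SNORD116 genes are a tandem family in the long non-coding host SNHG14 of the imprinted Prader-Willi region on chromosome 15, expressed mainly in neurons, and have no known ribosomal target. Of 28 SNORD116 genes, 2 were at 0 in all libraries and 12 were among the 65, with 933 fragments over the whole family. Of the neighbouring SNORD115 family, 45 of 46 genes were at 0 and 1 fragment was counted in all. The imprinted families of chromosome 14 had 3 fragments over the 15 SNORD113 genes and 35 over the 30 SNORD114 genes, and none of them reached a sum of 20. Fragments mapping to several places were not counted, and 17 SNORD genes have the same sequence as another, 9 of them at 0, so counts in such families do not give the amount of RNA.

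The 13 genes of the SNHG14 region (the 12 SNORD116 genes and SNORD108) summed to 11.0 and 7.88 CPM with DMSO and 12.3 and 12.5 CPM with SGSS05-NS. Both treated libraries lay above both controls, with a log2 ratio of means of 0.40 and an exact permutation p of 0.333. Some genes kept in this sum reached 20 mostly through SGSS05-NS, such as SNORD116-26 (2 and 2 fragments against 6 and 10). Among those left out, some were lower with SGSS05-NS (SNORD116-15, 3 and 7 against 2 and 1) and some higher (SNORD116-17, 3 and 2 against 4 and 8). How far the choice moved the ratio was not tested. Of the 6 genes of the region that were tested, 0 passed 0.05 in edgeR's quasi-likelihood test, and 2 had an unadjusted p under 0.05 (53.5% over all genes tested), SNORD116-19 and SNORD116-6. For SNORD116-6, both SGSS05-NS libraries but only 1 DMSO library reached the minimum of the filter, so its value is no support for a rise.

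SNORD116-19 gave a level of 1.79 and 1.16 CPM with DMSO and 2.75 and 2.13 CPM with SGSS05-NS, without overlap, and a log2 fold change of 0.71 with an adjusted p of 0.0571 in edgeR's quasi-likelihood test. SNORD116-6 had a log2 fold change of 0.99 with an adjusted p of 0.0789, SNORD116-13 one of 0.60 with 0.157 and SNORD116-18 one of 0.50 with 0.135 in the same test. SNORD116-14 and SNORD108 overlapped between groups, with log2 fold changes of -0.32 and -0.07. The exons of SNHG14 had a log2 fold change of 0.13 with an adjusted p of 0.307.

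Intron-hosted copies were then set beside the exons of their hosts. Per length, on the scale of CPM per kilobase in the DMSO libraries, SNORD17 stood at 798 against 7.54 for the exons of SNX5. SNORD94 stood at 24.7 against 10.6 for PTCD3 and SNORD12C at 29.0 against 9.94 for ZFAS1. Host length here joined the exons of all annotated transcripts (10123 bases for PTCD3 and 8315 for ZFAS1). It can exceed that of the spliced RNA, which lowers the host level and raises each percentage of a host. Whether SNORD94 and SNORD12C stood above their hosts is therefore not settled. In genes for abundant proteins the snoRNA gene stood below its host, with SNORD14E at 2.78% of the exon level of HSPA8 and SNORD100 at 1.15% of RPS12. SNORD53, SNORD53_SNORD92, SNORD70 and SNORD71, the higher genes in introns, stood at 7.49%, 8.89%, 9.01% and 18.7% of their hosts. A fragment can be longer than such a gene, so levels per length are rough. With each gene lengthened by 1 read less 1 base, the last 4 stood at 2.89%, 3.43%, 3.74% and 7.67%, and SNORD94 at 122% in place of 232% of its host.

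The change of each snoRNA gene was compared with that of its host in a fit with both genes of a pair, the library as a block and the interaction of treatment with kind of gene, over 127 pairs of a small RNA gene and its host (the quasi-likelihood test of edgeR, p-values adjusted over these pairs by the Benjamini-Hochberg method). Of these pairs, 25 were C/D box snoRNA genes, in 22 hosts. At an adjusted p under 0.001, 0 of the 25 differed from their host, against 5.51% of all pairs (0.787% higher and 4.72% lower). At 0.05, 3 were higher relative to their host and 1 lower (all pairs 24.4%, with 13.4% higher and 11% lower), and 7 had an unadjusted p under 0.05 (36.2% over all pairs). The 3 higher pairs are genes that were tested through their SGSS05-NS libraries, as above. With at least 10 fragments in every library, 17 C/D box pairs were left, of which 1, SNORD17, passed 0.05 (adjusted p of 0.0421), and the median difference was -0.19. The likelihood ratio test of edgeR also gave 0 at 0.001 and 4 at 0.05. For 18 of the 25 pairs the 95% interval of the difference held 0.

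SNORD53 differed from WDR43 by 1.52 on the log2 scale (95% interval 0.52 to 2.52, adjusted p of 0.0187), and SNORD53_SNORD92 by 1.29 (0.34 to 2.25, adjusted p of 0.0361). The exons of WDR43 gave 5342 and 5225 fragments with DMSO and 4817 and 5397 with SGSS05-NS and overlapped between groups, with a log2 fold change of 0.03. The 3 snoRNA genes of this host together gave 26 and 18 fragments with DMSO and 50 and 53 with SGSS05-NS, and here the groups did not overlap. SNORD53 and SNORD53_SNORD92 were tested through their SGSS05-NS libraries, so this sum is no separate support. Over all genes tested, both treated libraries lay above both controls for 37.8% and below both for 36.9%.

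SNORD71 differed from AP1G1 by 1.72 (0.49 to 2.95, adjusted p of 0.0235), and the exons of AP1G1 had a log2 fold change of -0.02. SNORD17 moved in the other direction relative to its host, by -0.79 (-1.32 to -0.26, adjusted p of 0.0242). The exons of SNX5 rose from 1555 and 1353 fragments to 2005 and 2163, a log2 fold change of 0.60 with an adjusted p of 0.000281 in edgeR's quasi-likelihood test over all genes, whereas SNORD17 itself overlapped between groups. SNORD17 lies within more than 1 annotated gene, and SNX5 was taken as the one with the highest count. With pairs of a single candidate host, SNORD17 drops out and 3 of 24 C/D box pairs passed 0.05.

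**Figure D3:**
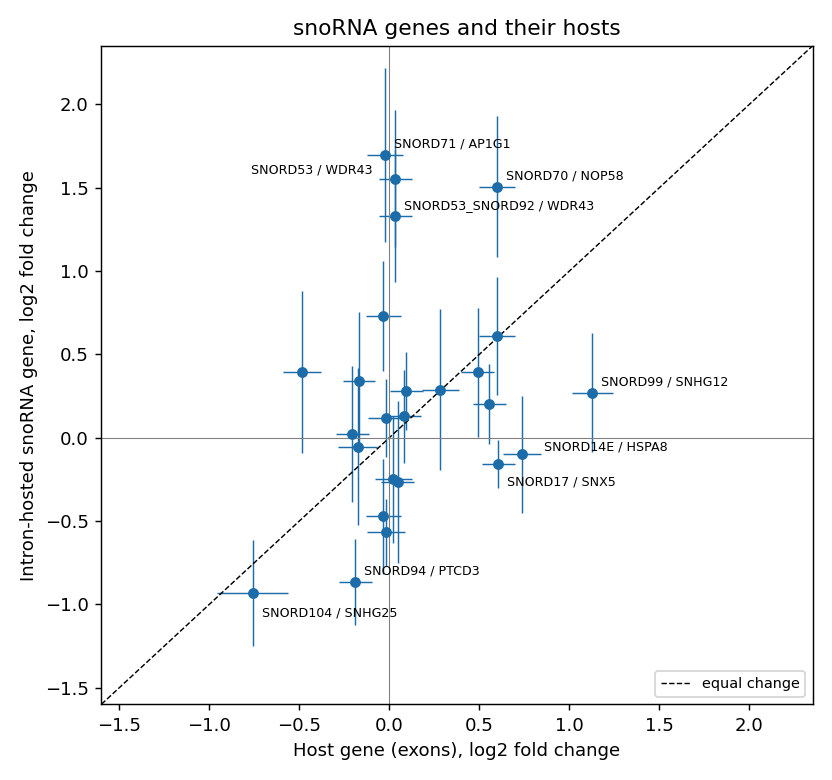
Log2 fold change of 25 intron-hosted C/D box snoRNA genes (vertical axis) against that of the exons of their host (horizontal axis), with bars of 1 standard error and a dashed line of equal change. The SNORD53 genes and SNORD71 lie above 1.3 over hosts near 0, and SNORD17, SNORD14E and SNORD99 lie at -0.16, -0.10 and 0.27 over hosts at 0.60, 0.74 and 1.13.

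Of the hosts themselves, 6 of 34 were higher and 0 lower at 0.001 (6.37% and 8.14% of all genes tested). At 0.05, 11 were higher and 5 lower (22.6% and 23.7% of all genes tested). The hosts were not compared with genes of like depth. The 6 at 0.001 were SNHG12 (1.13), CCNB1IP1 (0.79), HSPA8 (0.74), SNX5 (0.60), NOP58 (0.60) and ZFAS1 (0.55), given as log2 fold changes. In HSPA8, the gene of the constitutive HSP70, which rose from 53050 and 46625 fragments to 71049 and 85882, SNORD14E gave 32 and 17 with DMSO and 20 and 23 with SGSS05-NS and overlapped. The difference of SNORD14E from its host was -0.82 (-1.58 to -0.05) with an adjusted p of 0.112. SNORD99 differed from SNHG12 by -0.86 (-1.66 to -0.05) with an adjusted p of 0.113, so that neither passed 0.05 after adjustment.

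ZFAS1, a long non-coding host with 3 C/D box snoRNA genes, allowed a comparison within 1 transcript. Its exons rose from 2012 and 1989 fragments to 2631 and 2923. SNORD12B gave 88 and 85 fragments with DMSO and 98 and 109 with SGSS05-NS, SNORD12 gave 80 and 66 against 66 and 66, and SNORD12C gave 65 and 60 against 55 and 81. SNORD12B lay above its controls in both treated libraries while the other 2 overlapped, and none passed 0.05. SNORD12C, which overlaps no annotated exon of ZFAS1, differed from this host by -0.36, with an interval from -0.93 to 0.20. SNORD12 and SNORD12B lie in introns of the main ZFAS1 transcript but overlap exons of others. With exon-overlapping genes included as pairs, SNORD12 differed by -0.61 (-1.15 to -0.08, adjusted p of 0.0948 in edgeR's quasi-likelihood test). SNORD12B differed by -0.21 (-0.71 to 0.28).

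In NOP58, both the host and SNORD70 were higher. Their difference was 0.91 (-0.08 to 1.89, adjusted p of 0.156), and that of SNORD11 from NOP58 was 0.01 (-0.82 to 0.84). SNORD104 and its host SNHG25, at log2 fold changes of -0.93 and -0.76, differed by -0.20 (-0.99 to 0.60). SNORD94 differed from PTCD3 by -0.69 (-1.28 to -0.10, adjusted p of 0.0809) and SNORD15B from RPS3 by -0.54 (-1.16 to 0.08, adjusted p of 0.190). SNORD100 differed from RPS12 by 0.76 (-0.08 to 1.61), while SNORD101 in the same host differed by -0.45 (-1.30 to 0.41).

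**Figure D4:**
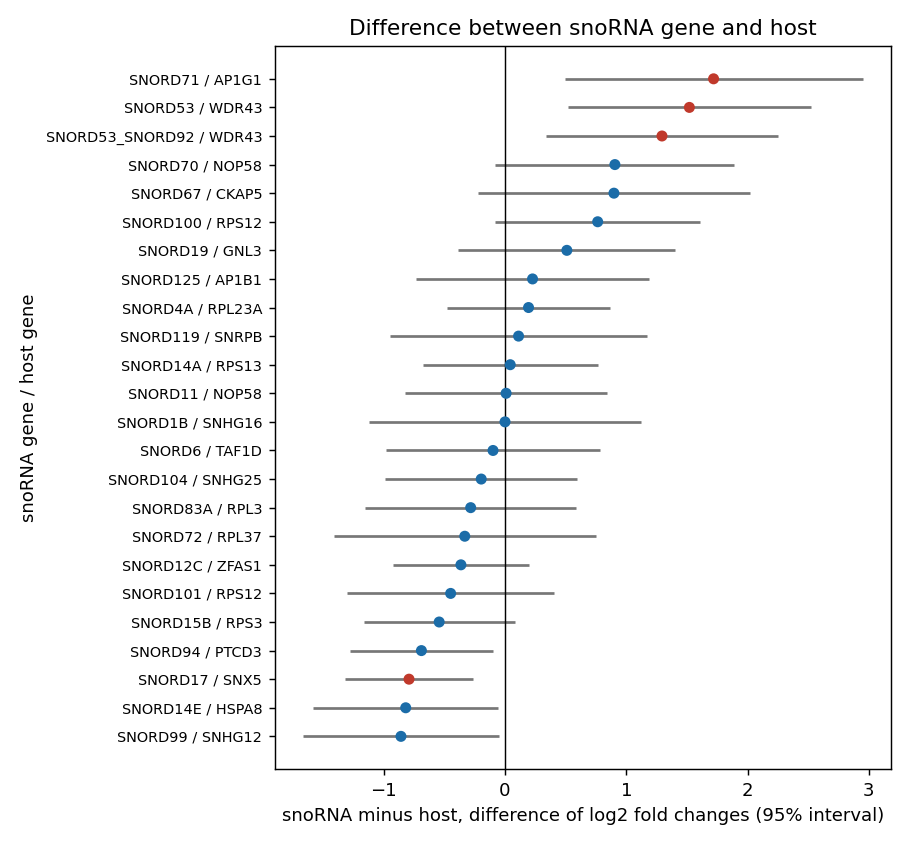
Difference of log2 fold changes, snoRNA gene minus host exons, for 24 of the 25 pairs (horizontal axis, lines for 95% intervals), with red points for an adjusted p under 0.05 and blue points for the rest. The red points are SNORD71, SNORD53 and SNORD53_SNORD92 above 0 and SNORD17 below 0.

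The median difference over the 25 C/D box pairs was 0.01, and over the other 102 pairs of small RNA genes it was 0.33, with 26.5% of those past 0.05. None of the 4 C/D box pairs past 0.05 stayed past it when any 1 library was left out, with adjusted p-values of 0.0718 to 0.284. The pairs that passed in those fits were SNORD15B without DMSO replicate 1 (adjusted p of 0.0315) and SNORD14E without DMSO replicate 2 (0.0108), which had not passed with all libraries, and 0 passed without either SGSS05-NS library. Genes that overlap a host exon were kept out of the main pairs, since fragments on both genes are set aside as ambiguous. The class rests on exons of a later annotation than the one used for counting, so this loss need not hold for each gene. SNORD12B and SNORD12 of this class still held 380 and 278 fragments. How far the loss affected the genes of this class was not tested. With these 13 tested genes included as pairs, SNORD63 differed from HSPA9 by 1.28 (0.28 to 2.29, adjusted p of 0.0536) and SNORD78 from GAS5 by -0.76 (-1.50 to -0.03, adjusted p of 0.127). SNORD20 in NCL, the gene of nucleolin, gave 30 and 25 fragments with DMSO and 20 and 30 with SGSS05-NS, and its difference from NCL was 0.36 (-0.42 to 1.13). Across the 25 pairs, the Pearson correlation of the fold changes of snoRNA gene and host was 0.24 and the Spearman correlation 0.23, as a description over pairs that share libraries.

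The proteins that make C/D box snoRNAs into particles were followed in the same fit. Of 32 genes for core, assembly, U3 and processing factors, 4 were higher and 1 lower at 0.001 (background 6.37% and 8.14%), and at 0.05 the counts were 9 higher and 6 lower (22.6% and 23.7%). Among the 4 core proteins, NOP58 rose with a log2 fold change of 0.60 (adjusted p of 0.00045), NOP56 had one of 0.39 (0.00644), the methyltransferase fibrillarin (FBL) one of -0.17 (0.162) and SNU13 one of 0.05 (0.728), all in edgeR's quasi-likelihood test. The 3 other higher genes were assembly factors, namely the chaperone genes HSP90AA1 (1.62) and HSP90AB1 (0.69) and the NOP58 chaperone gene NOPCHAP1 (0.79), and the lower gene was the AAA ATPase gene RUVBL1 (-0.69). Of the 5 genes for U3 proteins, 1 was higher and 0 lower at 0.05, UTP3 with a log2 fold change of 0.29 and an adjusted p of 0.0310. UTP3 was named after its values were seen.

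H/ACA snoRNA and scaRNA genes with a sum of at least 20 were counted in the same way. Of 49 tested SNORA genes, 0 were higher and 1 lower at 0.001, and 5 were higher and 8 lower at 0.05, with a median log2 fold change of -0.03. Of 10 tested SCARNA genes, 0 were higher and 1 lower at 0.001, with a median of 0.25. The C/D box snoRNA genes, at 0 higher and 0 lower at 0.001, were not tested against either class.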

How the data were processed

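Per the labels, total RNA of SY5Y cells was sequenced from 4 libraries. According to the methods and the submitters' processing notes, the authors used Trimmomatic 0.30 for trimming and STAR 2.4.2a for alignment (hg19, GENCODE 19), and the deposited values are STAR's raw counts per gene, neither normalized nor pooled. The reverse-strand counts were used here. Summary rows (37.3% to 38.8% of fragments, multi-mapped ones included) were left out. Intervals of counts and the limit that a count of 0 allows (3 counts) cover counting error only.

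The 65 genes and the gene lists were chosen with earlier results of these data known. Names, exons and hosts came from GENCODE 44 on GRCh37 by gene identifier (55538 of 57820 matched) and sequences from the GRCh37 genome. Of the 33 listed snoRNP proteins, ZNHIT3 matched no identifier. The results of a few items are not reported here. Genes were named by smallest p, highest sum, nearness to the limit, own promoter, host, family and pair difference.

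The fit used R 4.3.3 and edgeR 4.0.16 (filterByExpr, TMM, quasi-likelihood test, no covariate, Benjamini-Hochberg over 16468 genes, thresholds of 0.001 and 0.05). Standard errors are Wald errors on the quasi-likelihood scale. CPM are TMM-normalized. Host pairs were tested with the library as a block. Scripts were tested on simulated data. Libraries of 1 condition differed by more than counting noise (chi-square over degrees of freedom 8.76 in DMSO and 11.8 in SGSS05-NS). Alternatives were the likelihood ratio test, DESeq2 1.42.0, other scalings and filters, pairs with a single candidate host, a replicate block, unstranded counts and each library left out.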

Additional observations from a re-analysis of the deposited data

Results flagged for a closer look

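Fragments outside annotated exons, which no comparison used, made up 16.1% and 15.3% of the fragments in the SGSS05-NS libraries, above the 12.4% and 12.3% of the DMSO libraries. Their part in the counts of snoRNA genes inside introns was not tested.

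Fragments on the strand opposite to the 65 C/D box snoRNA genes, which the counts leave out, came to 11 in each SGSS05-NS library (0.496 and 0.468 CPM) and to 6 and 1 in the DMSO libraries (0.239 and 0.0428 CPM).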

How the results depend on the processing

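At an adjusted p under 0.05 in place of 0.001, 5 C/D box snoRNA genes were higher and 7 lower, 3728 and 3903 of all genes, 9 and 6 of the snoRNP protein list, and 4 host pairs differed. The likelihood ratio test gave 1 higher and 2 lower C/D box snoRNA genes, 2022 and 2267 genes in all, and 2 lower list members. DESeq2 gave 1 lower C/D box snoRNA gene and 2 lower list members. Without a filter, 1 was higher and 4 lower of the C/D box snoRNA genes, 2034 and 2570 of all genes and 4 list members lower. Unstranded counts gave 1 lower C/D box snoRNA gene. With the replicate block, 2 C/D box snoRNA genes and 2 list members were lower. Over all genes, 1759 were higher and 2007 lower with the block, and 1049 and 1341 without it. The deviations of libraries with the same replicate number had a correlation of 0.0621. With 2 replicates of each treatment, whether the numbers pair the samples is not settled.

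With each library left out in turn, 0 C/D box snoRNA genes were higher and between 0 and 1 lower, 739 to 921 genes were higher and 967 to 1245 lower, 1 to 4 list members were higher and 1 to 2 lower, 0 pairs differed at 0.001, and the log2 ratio of the summed level ran from -0.48 to -0.06. The remaining condition with 1 library was assumed to vary like the other. The log2 fold change changed sign among these fits for SNORD17 (-0.47 to 0.10, positive without SGSS05-NS replicate 1), SNORD3C (-1.16 to 0.20, likewise), SNORD12 (-0.14 to 0.032, positive without DMSO replicate 1), SNORD20 (-0.33 to 0.17, positive at 0.029 without DMSO replicate 1 and at 0.17 without SGSS05-NS replicate 1), SNORD14E (-0.44 to 0.37, positive without DMSO replicate 1) and SNORD12C (-0.057 to 0.42, negative without SGSS05-NS replicate 2), and the cause was not tested. None of these 6 genes passed 0.05 with all libraries. Depth limits the genes with sums under 100, 44 of the 65, and 21 of the 65 could not be tested.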
